A study of Homo sapiens with 24 samples.

Results

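CHP-212 is an established human neuroblastoma cell line, and its GFP-expressing cells were compared at baseline with those of 2 other neuroblastoma lines, IMR-32 and SK-N-BE(2). The members are the arrays whose transgene label is GFP alone, so that 4 of the 24 arrays in the series come from CHP-212 and 8 from the other lines, 4 of each. The study asked what the forkhead transcription factor FOXP1 does in such cells, and the GFP cultures were its controls. All 3 lines carried a retroviral RevTet-On system, in which doxycycline turns the transgene on, and were kept as polyclonal populations in 2 μg/ml doxycycline for 0, 12, 24 or 72 h. The promoter of that vector leaks, so the 0 h cells were not free of transgene product, and GFP and FOXP1 were carried by separate cultures. Nothing in the labels says that the 4 time points of a line came from separate cultures, so p-values measure only the spread between those arrays, and what sets 1 line apart from 2 others cannot be told apart from what sets 1 transduced population apart. No array slide held different lines, so line and slide cannot be told apart either.

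Neuroblastoma arises from the sympathetic branch of the neural crest, whose cells make noradrenaline from tyrosine through a short chain of enzymes and carry axonal and vesicle proteins of nerve cells. Neuroblastoma lines are known to take up states between 2 extremes, an adrenergic one held by factors of the sympathetic lineage and a mesenchymal one with matrix, actin and adhesion genes of migrating crest cells. Lines also keep a positional code of HOX genes from the body level at which their precursors formed. In RNA from a whole culture, fewer cells of a type and less RNA per cell cannot be told apart.

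Levels are given as log2 of the background-subtracted signal of a probe after the 75th percentile of the same array was subtracted, so that 0 is the level of that percentile, and differences are CHP-212 minus the average of the IMR-32 and SK-N-BE(2) means. The levels of different probes have no common scale and are not compared. A probe was tested when 4 or more of the 12 GFP arrays flagged it as well above background, and was called when limma gave an adjusted p under 0.05 and the difference was at least 2-fold. Arrays of CHP-212 correlated with each other at 0.971 to 0.992, and with the IMR-32 and the SK-N-BE(2) arrays at medians of 0.845 and 0.858 (Pearson, across probes). The CHP-212 arrays of 0 and 12 h shared 1 slide and had a higher floor, with 60.4% and 58.1% of probes well above background against 80.6% and 78.0% at 24 and 72 h and 73.5% to 82.3% in the other lines. The lowest level well above background was -4.43 and -4.32 on those 2 arrays and -6.64 and -6.42 on the later ones, so a CHP-212 level under these is no measured level. Where a gene was above background on some arrays of a line, its differences and folds are the values as read and not a measured size.

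Of 35246 probes tested, 4927 (14.0%) were higher and 4700 (13.3%) lower in CHP-212 than in the average of the other lines. A stricter count asked for a difference of at least 2-fold from each line, and 3131 probes (8.88%) were higher and 2830 (8.03%) lower on that count, called apart from both lines below. Which direction held more calls depended on the scaling, with 4720 higher and 5503 lower after quantile normalization and 4676 and 5533 in the value table of the authors. With no filter on dim probes, 6728 were higher and 4670 lower. Gene names came only for 2727 tested probes, those of genes that the study had picked for a change between FOXP1 and GFP cells in at least 1 line, with these same GFP arrays on one side. Among these named genes 866 (31.8%) were higher and 718 (26.3%) lower than the average, and 595 (21.8%) were higher and 447 (16.4%) lower than both lines. On 1174 named genes (43.1%) the 4 CHP-212 arrays did not overlap with the 8 others in either direction, so that a lack of overlap is common in this table. The 24 gene lists described here held 389 genes, of which 328 were tested. Of the 328, 291 were above background on arrays of both sides, 6 only in CHP-212 and 31 only in the other lines, and members of the last 2 kinds could pass the filter only by being high on 1 side. All 6 of the former were called higher and 23 of the 31 latter lower, so counts without both kinds are given beside the lists where they change the account most.

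The label of the line was first set against markers of sympathetic neuroblasts. DBH, which turns dopamine into noradrenaline, read -6.55, -6.54, -6.26 and -5.15 in CHP-212 at 0, 12, 24 and 72 h, with only the last 2 arrays above background. It read -1.05, -1.35, -0.89 and 0.04 in IMR-32 and 4.48, 4.56, 4.36 and 4.86 in SK-N-BE(2). The difference was -8.0 ± 0.3 (SE), with an adjusted p of 3.26e-10, and the order of the lines was SK-N-BE(2), IMR-32, CHP-212 with no overlap between neighbours. HOXC9, a homeobox gene of the trunk, followed the same order, at -6.51, -6.51, -5.86 and -5.66 in CHP-212, -4.12, -3.72, -3.8 and -3.58 in IMR-32 and 3.69, 3.85, 3.67 and 3.38 in SK-N-BE(2). Its difference was -6.06 ± 0.19 (SE), adjusted p 7.21e-11, and again only the 24 and 72 h arrays of CHP-212 were above background. Both markers were thus at or near background in CHP-212.

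Other markers of the lineage differed in both directions. TH, the rate-limiting enzyme of catecholamine synthesis, read 2.69, 2.65, 3.55 and 3.33 in CHP-212, -1.22, -1.66, -1.46 and -0.29 in IMR-32 and 1.92, 1.77, 1.6 and 2.27 in SK-N-BE(2), which made it 6.45-fold higher in CHP-212 than the average, with a difference of 2.69 ± 0.26 (SE) and an adjusted p of 2.83e-06. RET, the receptor tyrosine kinase for GDNF family ligands, read 3.24, 3.28, 4.05 and 3.81 in CHP-212, against -4.34, -3.41, -3.0 and -3.13 in IMR-32 and 2.71, 2.94, 2.3 and 2.74 in SK-N-BE(2). The RET difference from IMR-32 was 7.06 and that from SK-N-BE(2) 0.92, under 2-fold, so that CHP-212 was apart from IMR-32 only. STMN2, a tubulin-binding protein of growing axons, lay within the IMR-32 range and below SK-N-BE(2) (differences 0.07 and -3.13). GAP43, a growth cone protein, was lower than both lines by 12.3-fold on average and above background on all 4 CHP-212 arrays. ELAVL4, a neuronal RNA-binding protein, was lower by 171-fold on average and above background on 2 CHP-212 arrays. CHP-212 thus carried TH, RET, STMN2 and GAP43 on every array, while DBH, HOXC9 and ELAVL4 were above background on the 24 and 72 h arrays only.

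**Figure D1:**
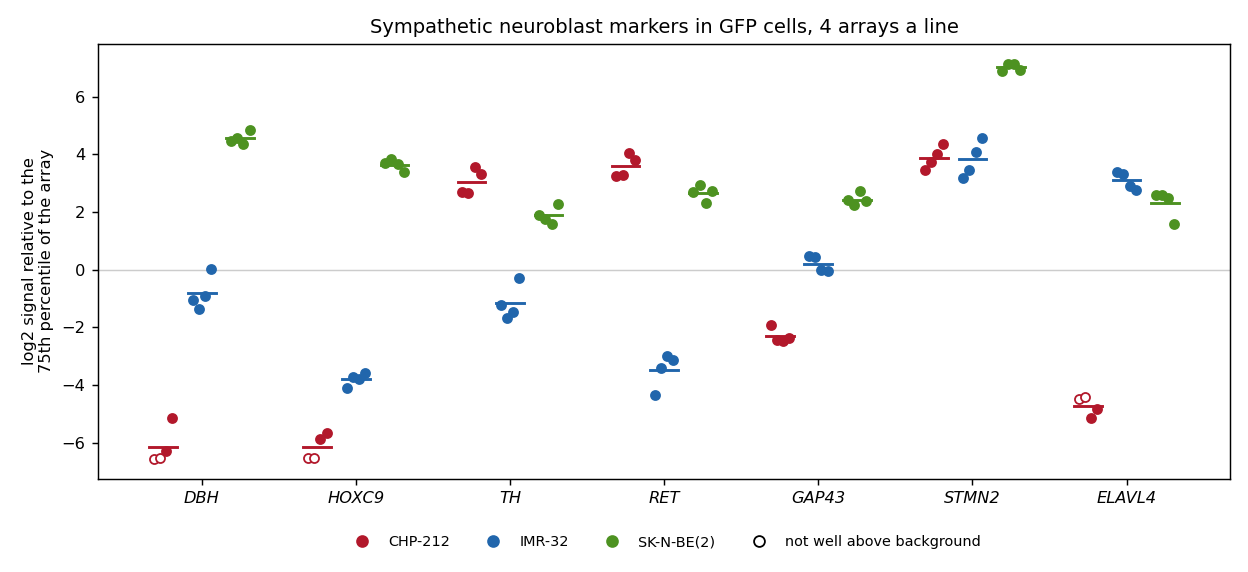
Levels of 7 sympathetic neuroblast markers in GFP cells, as log2 signal relative to the 75th percentile of the array, with a point for each of the 4 arrays a line, a bar at the mean and an open point where the probe was not well above background. The CHP-212 points for DBH and HOXC9 lie below -5, under all points of the other lines, while those for TH lie above all of them.

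Within the catecholamine pathway, CHP-212 differed in opposite directions from step to step. All 10 genes of the list were called, 5 higher and 5 lower than the average, and 4 and 4 of them were apart from both lines, with a median difference of -0.11 beside a median of 0.13 over all named genes. The shares of 50% higher and 50% lower stood beside 31.8% and 26.3% of all named genes. Without SLC18A1, which only the other lines had above background, the median was 1.91. Besides TH, the higher genes included SPR, which makes the tetrahydrobiopterin cofactor that TH needs, at 0.99, 0.8, 0.82 and 0.82 in CHP-212 and 1.91 above the average. GCHFR, which regulates the first enzyme of cofactor synthesis, was 2.04 above the average, and SLC18A2, the vesicular monoamine transporter of neurons, was 1.59 above SK-N-BE(2) and at least 12.9-fold above IMR-32, where no array was above background. The lower genes were DBH, then PNMT, which methylates noradrenaline, SLC6A2, the noradrenaline transporter of the cell membrane, MAOA, which degrades monoamines, and SLC18A1, the vesicular transporter of endocrine cells.

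SLC6A2 read -5.91, -6.34, -5.29 and -5.4 in CHP-212, with 2 arrays above background, against -0.49, -1.04, -0.96 and -0.51 in IMR-32 and 3.58, 3.36, 3.27 and 3.29 in SK-N-BE(2), a difference of -7.05 ± 0.2 (SE) with an adjusted p of 3.43e-11. MAOA read -3.41, -3.72, -3.57 and -3.79 in CHP-212, above background on every array, against 0.75, 1.59, 1.38 and 0.37 and 1.07, 1.36, 1.52 and 1.42, and was 27.9-fold lower than the average. SLC18A1 was not above background on any CHP-212 array and was at least 34-fold lower than in SK-N-BE(2), but its level in IMR-32 was above background on only 2 arrays and did not separate the pair. CYB561, which supplies electrons to DBH within the vesicle, was 7.32 above IMR-32 and -1.47 from SK-N-BE(2), so that its call against the average joins differences of opposite sign. In these GFP cells TH and SLC18A2 were thus higher than both lines, and DBH and SLC6A2 lower than both. The median of the list was 0.22 with the 24 and 72 h arrays alone.

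Genes of proteins that travel with catecholamines in dense-core vesicles were split as well. CHGB, a granin that packs the vesicle core, read -5.02, -5.6, -5.42 and -5.07 in CHP-212, with 2 arrays above background, 1.33, 1.05, 1.06 and 1.54 in IMR-32 and 3.3, 3.38, 3.84 and 3.81 in SK-N-BE(2), 207-fold lower than the average (difference -7.69 ± 0.17 (SE), adjusted p 5.72e-12). SCG2, another granin, read 3.43, 3.16, 2.9 and 3.1 in CHP-212 and was higher than both lines, by 3.27 and 1.07. PAM, which amidates neuropeptides, was 1.61 above the average, whereas SCG5, the chaperone of a prohormone convertase, was -1.08 and -7.37 from IMR-32 and SK-N-BE(2), with 3 CHP-212 arrays above background. In all, 3 of 6 tested members were higher (SCG2, PAM and ECEL1) and 2 lower, with PCSK1 not called and above background in SK-N-BE(2) only. These shares, 50% and 33.3% of few members, stood beside 31.8% and 26.3% of all named genes. The lower share was near that of all named genes. With normexp background correction 1 member was higher and 1 lower than both lines in place of 2 and 2. Of the GDNF family genes, RET was the 1 higher member of 4 tested and GFRA2, GFRA3 and NRTN the 3 lower ones, GFRA2 being a co-receptor and NRTN, neurturin, a ligand, and those 3 were apart from both lines with differences of -2.0, -2.98 and -2.83, of which those of GFRA3 and NRTN rest on 2 and 1 CHP-212 arrays above background, and 2 of the 3 were apart from both lines with normexp background correction. The nicotinic receptor subunits CHRNA3 and CHRNB4, which form the receptor of autonomic ganglia, were the 2 lower genes of 3 tested, with CHRNA3 at 0.57, 1.03, 1.38 and 0.67 in CHP-212 against 3.84, 3.72, 3.83 and 3.47 in IMR-32 and 5.03, 5.1, 5.09 and 5.1 in SK-N-BE(2).

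Transcription factors of the adrenergic state were lower in CHP-212 in 5 of 6 cases, all 5 apart from both lines, with a median difference of -5.53 for the list. Without EYA1, which only the other lines had above background, 4 of 5 were lower and the median was -3.55. EYA1, a phosphatase and coactivator of homeodomain transcription factors, read -6.56, -6.51, -8.57 and -8.43 in CHP-212, on no array above background, against 1.42, 1.97, 1.69 and 1.2 and 1.79, 2.18, 2.01 and 2.26, and was at least 154-fold lower than the average. TFAP2B, an AP-2 factor of sympathetic neurons, read -6.55, -6.41, -7.21 and -6.27 in CHP-212, with 1 array above background, -1.95, -1.42, -0.6 and -0.67 in IMR-32 and 3.8, 4.24, 4.06 and 4.28 in SK-N-BE(2), a difference of -8.08 ± 0.26 (SE) with an adjusted p of 9.78e-11. DACH1, SIX3 and SATB1 were lower by 182-fold, 11.7-fold and 6.73-fold on average, the first 2 with 2 CHP-212 arrays above background, and HEY1, a Notch target, was not called, lying between IMR-32 and SK-N-BE(2). All 8 arrays of the other lines lay above all 4 of CHP-212 for each of the 5 genes that were lower, while 43.1% of all named genes had no overlap in either direction.

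Of 11 tested regulators of the mesenchymal state, 6 were higher in CHP-212, 4 of them than both lines, and 1 was lower, with a median of 1.14. Of the 10 above background on both sides, 6 were higher and 0 lower (median 1.21). With normexp background correction 4 of the 11 were higher, MAFF and TCF7L2 losing their calls, and the median was 0.66. IFI16, a sensor of nuclear DNA that also carries an interferon response, read 4.11, 3.98, 4.28 and 4.49 in CHP-212, whereas SK-N-BE(2) read 0.71, 0.87, 0.65 and 0.6 and IMR-32 -7.04, -6.28, -6.81 and -7.76, where 1 array was above background, and its difference was 7.35 ± 0.22 (SE) with an adjusted p of 6.02e-11. ID1, an inhibitor of basic helix-loop-helix factors, was 3.16 above the average, BHLHB3, a clock-linked repressor, 2.23, and SOX9, a factor of migrating crest and cartilage, 1.5. The lower gene, FLI1, was on no array of CHP-212 or SK-N-BE(2) above background and was at least 6.3-fold lower than in IMR-32. PRRX1, a defining factor of the mesenchymal state, was on no array of any line above background, and MAML2, a Notch coactivator, was above it on 2 CHP-212 arrays alone, so neither was tested.

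Of 9 tested HOX genes 3 were higher (33.3%) and 3 lower (33.3%) in CHP-212, shares near the 31.8% and 26.3% of all named genes, and only 4 of the 9 were above background in CHP-212 and in another line, so the genes are described singly. HOXD10 read 3.38, 3.26, 3.54 and 3.66 in CHP-212, -3.22, -3.19, -2.86 and -2.64 in IMR-32 and -3.99, -3.87, -3.43 and -3.21 in SK-N-BE(2), and was 108-fold higher than the average (difference 6.76 ± 0.18 (SE), adjusted p 1.78e-11). HOXD11 read 0.13, 0.17, 0.55 and 0.27 in CHP-212 and was above background on 1 array of IMR-32 and none of SK-N-BE(2), which makes it at least 98.6-fold higher than in the latter. HOXA10 read -1.17, -1.51, -1.58 and -1.52 and was above background on no array of the other lines, at least 32.3-fold higher than their average. These posterior genes of the HOXA and HOXD clusters were the 3 higher members.

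The 3 lower members were HOXC genes, HOXC8, HOXC9 and HOXC10. HOXC8 read -0.71, -0.45, -0.79 and -0.73 in SK-N-BE(2) and was at least 27.6-fold lower in CHP-212, where no array was above background, and HOXC10 read -1.81, -1.17, -1.92 and -1.07 and was at least 15.6-fold lower. Neither was above background in IMR-32, so that only HOXC9 of the 3 lower members was apart from both lines, and with normexp background correction it was apart from SK-N-BE(2) alone. HOXC5, HOXC6 and HOXB9 were not called, and the 6 HOX genes not tested were above background on at most 2 arrays of any line. Among neural crest and glial genes, 4 of 10 were higher than both lines and 3 were lower than the average, with a median of -0.08 (4 higher and 2 lower of the 8 above background on both sides). The shares against the average, 40% higher and 30% lower, were near the 31.8% and 26.3% of all named genes. These genes too are described singly. The higher genes were NGFR, the low-affinity neurotrophin receptor (4.8), MBP, a myelin protein gene (4.49, 1 SK-N-BE(2) array above background), ZIC1, at least 17.4-fold above SK-N-BE(2), where no array was above background, and the AP-2 factor TFAP2C (3.01). SOX2, a factor of neural progenitors, was lower than both (-1.59) and above background on 2 CHP-212 arrays, while ZEB2 and SNAI1, regulators of epithelial-mesenchymal change, were not called. The other lower members were MIA, a secreted protein of melanocytic cells, on no CHP-212 array above background and at least 2.08-fold lower than in IMR-32, and the forkhead factor FOXC1 (-1.01), and with normexp background correction 0 of the 3 stayed called.

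The genes that led the comparison were taken by rule as the 10 most positive and 10 most negative differences among named genes apart from both lines, without overlap and above background on all arrays of the higher side, so their sizes describe the choice and are no further test. GJA1, which encodes the gap junction protein connexin 43, read 3.34, 3.35, 3.41 and 3.58 in CHP-212 and -6.63, -5.6, -5.97 and -6.58 in IMR-32, with 2 arrays above background, and was at least 872-fold higher than in SK-N-BE(2), with an adjusted p of 2.85e-12 against the average. NR0B1, an orphan nuclear receptor of adrenal and gonadal development, read 4.26, 4.09, 4.26 and 4.29 in CHP-212 and -2.74, -2.36, -2.34 and -2.19 in IMR-32, and was at least 1523-fold higher than in SK-N-BE(2). HTRA1, a secreted serine protease, read 4.53, 4.43, 4.22 and 4.37 in CHP-212 and -2.89, -2.47, -1.79 and -0.9 in IMR-32, and was at least 1703-fold higher than in SK-N-BE(2). None of these 3 genes was above background on any SK-N-BE(2) array.

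ASB9, an ankyrin and SOCS box protein, was at least 277-fold higher than in IMR-32, TRPS1, a GATA-type repressor of skeletal development, at least 478-fold, and PIK3C2G, a class II phosphoinositide kinase, at least 191-fold. CBLN2, a secreted organiser of synapses, read 2.74, 3.36, 3.4 and 3.24 in CHP-212 and was 8.32 and 9.19 above IMR-32 and SK-N-BE(2). S100A16, a small calcium-binding protein, read 3.9, 3.71, 4.12 and 4.04 and was above background on all 12 arrays, which gives its difference of 8.57 ± 0.3 (SE) a measured level on both sides. COL12A1, a fibril-associated collagen, and SP110, an interferon-induced nuclear body protein, completed the set, COL12A1 at 9.19 with 3 of the 8 other arrays above background, and SP110 at least 131-fold above SK-N-BE(2), where no array was above background.

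At the other end, 4 of the 9 lower genes shown were not above background on any CHP-212 array and have only a bound. TCEAL7, a transcription elongation factor-like gene, was at least 187-fold lower than the average, EYA1 at least 154-fold and JAKMIP1, a microtubule-binding protein of neurons, at least 153-fold. RAB3C, a small GTPase of synaptic vesicles, was likewise at least 186-fold lower. PDE2A, a phosphodiesterase of cyclic nucleotides, read -6.24, -6.11, -3.99 and -4.39 in CHP-212, with 2 arrays above background, against 3.61, 3.76, 3.98 and 4.01 and 4.33, 4.41, 4.09 and 4.66. The differences of NELL1, ZMAT4, CCDC3 and TNRC4, the last an RNA-binding protein, were -9.34, -8.9, -8.58 and -8.3, with 1 CHP-212 array above background for NELL1 and 2 for each of the others. Each of the 9 was above background on all 8 arrays of the other lines.

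**Figure D2:**
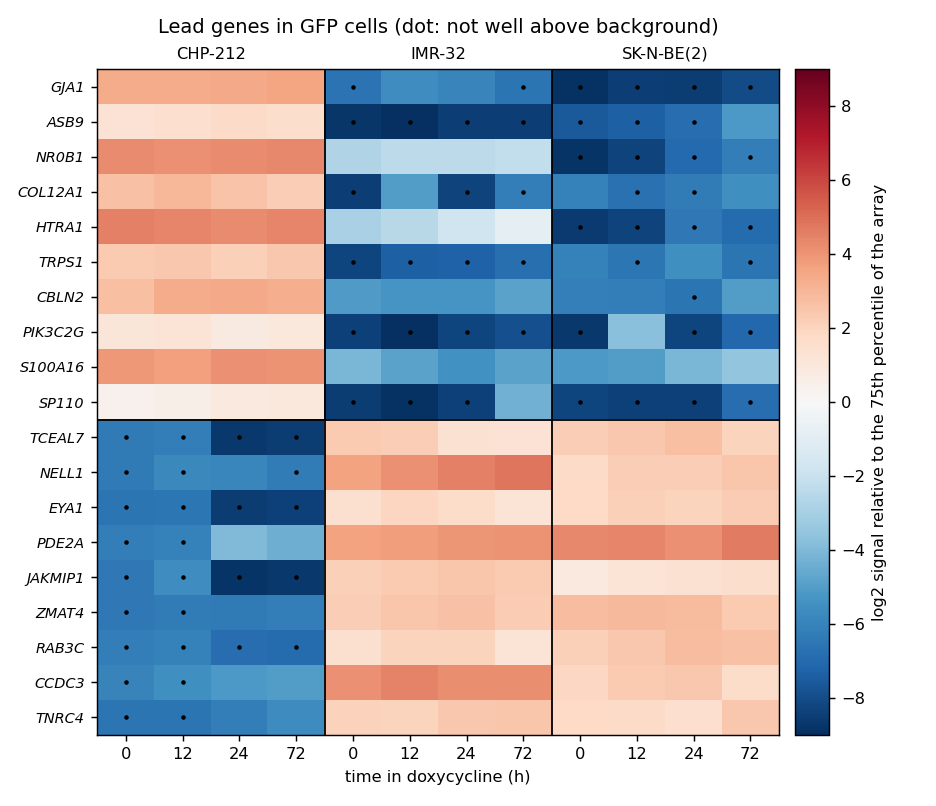
Heat map of 19 leading genes (10 higher and 9 lower in CHP-212) on the 12 GFP arrays, coloured by log2 signal relative to the 75th percentile of the array, with arrays ordered by line and by hours in doxycycline and a dot where the probe was not well above background. The 4 CHP-212 columns are all above 0 in the upper block and all below -3 in the lower one, where most carry a dot.

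Axonal and neuronal cytoskeleton genes were lower in CHP-212 in 12 of 16 tested cases, 11 of them than both lines, with a median difference of -3.55. In 1 case the gene was higher (11 lower and 1 higher of the 15 above background on both sides). TUBB2B, a neuronal beta-tubulin, read -4.13, -3.39, -3.58 and -3.61 in CHP-212, above background throughout, against 4.88, 4.85, 4.87 and 4.81 in IMR-32 and 3.96, 4.36, 4.31 and 4.39 in SK-N-BE(2), 300-fold lower with a difference of -8.23 ± 0.15 (SE) and an adjusted p of 1.80e-12. PRPH, the peripherin filament of peripheral neurons, read -0.48, -0.65, 0.65 and 0.58 against 5.07, 5.37, 5.34 and 5.32 and 6.8, 6.94, 6.65 and 6.66. DCX, doublecortin of migrating neurons, read -5.17, -6.03, -5.2 and -5.13 in CHP-212, above background on 2 arrays, and was 60.7-fold lower than the average. STMN4 and MAP6, which bind tubulin and microtubules, were lower by 186-fold and 42.8-fold, each with 2 CHP-212 arrays above background, and BASP1, a membrane protein of growth cones, by 11.1-fold. The adhesion molecule NRCAM was not above background on any CHP-212 array and at least 6.12-fold lower.

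The genes that did not follow were NEFL (-0.36), MAP2 (0.88) and MAP1A (-0.24), a neurofilament and proteins of dendritic microtubules, none of which was called. DPYSL3, a collapsin response mediator, was higher than in IMR-32 by 5.28, with 2 IMR-32 arrays above background, but not called against SK-N-BE(2) at 0.6. STMN2 was the 1 lower member that did not differ from IMR-32 by 2-fold.

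Genes of the synaptic vesicle and of transmitter release were lower in 12 of 22 tested cases, 10 of them than both lines, and higher in 4, with a median of -1.71, which was -0.37 with normexp background correction (6 lower than both lines). For 6 of the 22, SYP among them, only the other lines were above background, and of the 16 members left 7 were lower and 4 higher, with a median of -0.24. CPLX1, complexin, which clamps vesicle fusion, read -5.23, -4.92, -4.69 and -4.94 in CHP-212 against 1.04, 0.8, 0.87 and 1.2 and 1.8, 2.17, 1.16 and 2.16, 81.3-fold lower, and its paralogue CPLX2 was 58.9-fold lower, with 2 and 1 CHP-212 arrays above background. SYP, the vesicle membrane protein synaptophysin, was on no CHP-212 array above background and at least 13.4-fold lower than the average. RAB3A, which tethers vesicles, was 24-fold lower and NRXN2, a presynaptic adhesion protein, 26.5-fold, with 2 and 3 CHP-212 arrays above background. SNPH, which anchors axonal mitochondria, went the other way, at 0.03, -0.58, 0.21 and 0.21 in CHP-212 against -4.54, -4.32, -4.06 and -3.68 and -4.27, -4.5, -3.83 and -3.98, as did SNCG, gamma-synuclein, at 3.08 above the average. These were the 2 members higher than both lines.

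Transcripts of peptide transmitters differed line by line. VIP, a vasoactive peptide of differentiated neuroblastoma, read 3.35, 3.42, 3.81 and 2.88 in SK-N-BE(2) and -2.01, -1.6, -2.55 and -4.34 in IMR-32 and was on no CHP-212 array above background, at least 56.6-fold lower than their average. NMU, neuromedin U, read 0.49, 1.63, 1.72 and 0.69 in CHP-212 and was 1.37 above IMR-32 and at least 178-fold above SK-N-BE(2), and was the 1 higher member of 11 tested. NPY, neuropeptide Y, was low in CHP-212 and IMR-32 alike, with a difference of -0.23 between them and of -8.49 from SK-N-BE(2), and 3 CHP-212 arrays were above background. CRH was highest in SK-N-BE(2) and between the lines in CHP-212, so its difference from the average was 0.31 and not called, and 6 members were lower in all, or 4 of the 9 above background on both sides. Among the receptors, NPY1R and NPY5R read -3.02, -1.93, -2.14 and -2.02 and -2.14, -1.68, -1.99 and -1.79 in CHP-212 and were above background on no array of the other lines, at least 18.1-fold and 23.5-fold higher, whereas NPY2R was found in SK-N-BE(2) alone, at 1.57, 1.71, 1.24 and 0.91. VIPR1, CALCRL and GALR1 were the other 3 of 5 higher receptors among 12 tested, and 4 were lower, or 3 and 2 of the 8 above background on both sides. The shares of the 12, 41.7% higher and 33.3% lower, stood beside 31.8% and 26.3% of all named genes. With normexp background correction 4 receptors were higher and 2 lower, GALR1 being the higher one that lost its call.

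Of the clustered protocadherins, which give neurons a surface identity, 11 of 15 tested were not called against the average, 1 was higher and 3 were lower (1 and 2 of the 12 above background on both sides). The lower count was 1 with normexp background correction and 5 with quantile normalization, and the higher count was 4 with the 24 and 72 h arrays alone. PCDHB2 read 0.35, 0.34, 0.55 and 0.46 in CHP-212 and was 5.26 above IMR-32 and 0.86 above SK-N-BE(2). PCDHB16 was near the IMR-32 level (0.66) and -5.1 from SK-N-BE(2), with 2 CHP-212 arrays above background. The sequences of these genes are closely related and a probe can read several, so single members are uncertain.

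Of 12 tested collagens, 7 were higher and 3 lower, with a median of 1.30 (0.80 with normexp background correction), and 5 and 1 of them were apart from both lines. The shares of the 12, 58.3% higher and 25% lower, stood beside 31.8% and 26.3% of all named genes. COL12A1 read 2.67, 3.0, 2.54 and 2.23 in CHP-212 and was above background on 1 array of IMR-32 and 2 of SK-N-BE(2), with an adjusted p of 2.47e-08. COL8A1, at least 21.3-fold above IMR-32, where no array was above background, COL6A2 (3.55), COL13A1 (3.5) and COL9A3 (2.44) were higher than both lines, while COL4A2, of the basement membrane, read -2.49, -2.6, -2.46 and -2.37 against 4.35, 4.35, 4.03 and 4.07 and 0.44, 0.85, 0.57 and 0.91 and was 30.4-fold lower. COL4A1, its partner chain, was lower by 3.78-fold on average and -0.81 from SK-N-BE(2). COL9A2, a fibril-associated collagen, was the third lower member (-1.25), -1.74 from IMR-32 and -0.76 from SK-N-BE(2). COL7A1 and COL8A2 were not called.

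Among 43 other matrix and matrix-modifying genes, 21 were higher and 12 lower than the average, and 18 and 9 were apart from both lines (18 and 4 with normexp background correction). The shares against the average were 48.8% higher and 27.9% lower, beside 31.8% and 26.3% of all named genes. The lower share was thus near that of all named genes. FBN2, fibrillin 2 of elastic microfibrils, read 1.08, 1.22, 1.14 and 1.07 in CHP-212 against -5.69, -6.32, -7.13 and -5.25 in IMR-32 and -5.02, -6.57, -6.03 and -6.47 in SK-N-BE(2), 146-fold higher with a difference of 7.19 ± 0.34 (SE) and an adjusted p of 3.17e-09, and 3 IMR-32 arrays and 1 of SK-N-BE(2) were above background. DCN, the proteoglycan decorin, read 2.41, 2.9, 3.12 and 2.9 against -5.48, -4.84, -5.35 and -4.96 and -2.72, -2.44, -1.96 and -1.89 and was 92.8-fold higher. MGP, an inhibitor of calcification, was 6.75 above the average, with 1 IMR-32 array above background, and COMP, a cartilage matrix protein, 5.77. CYR61, a matricellular target of YAP, was at least 70-fold above SK-N-BE(2), where no array was above background. MFAP4, a microfibril protein, read 6.85, 7.13, 7.54 and 7.5 in CHP-212 and was 2.3 and 6.13 above the other lines, all 12 arrays being above background.

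The lower matrix genes were led by PXDN, a peroxidase that crosslinks collagen IV, which read 1.78, 1.82, 1.98 and 2.09 in IMR-32, was on no CHP-212 array above background and was at least 21.6-fold lower than the average. SMOC2, another basement membrane protein, and LAMA4, a laminin chain, were lower too, with only 1 and 2 CHP-212 arrays above background. The sulfatases that edit heparan sulfate split, SULF1 reading -2.95, -2.21, -1.89 and -2.41 in CHP-212 and above background nowhere else, at least 17.1-fold higher, and SULF2 reading 1.46, 1.95, 1.8 and 1.61 against 4.53, 5.0, 4.84 and 5.06 and 5.36, 5.75, 5.63 and 5.56, 11.4-fold lower. TIMP3, an inhibitor of matrix proteases, was lower, with 1 CHP-212 array above background. The list thus held members of both directions, with a median of 0.79. Of the 40 above background on both sides, 20 were higher and 10 lower (median 1.11).

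Genes of actin-linked and other mesenchymal cell proteins were higher in CHP-212 in 21 of 31 cases and lower in 4, with a median of 1.64. Of these, 19 and 2 were apart from both lines. Among the 30 above background on both sides, 21 were higher and 3 lower (median 2.22). LGALS1, galectin 1, read 7.12, 7.03, 7.59 and 7.54 in CHP-212 against 1.1, 1.41, 0.84 and 0.78 in IMR-32 and 2.72, 2.99, 3.32 and 3.62 in SK-N-BE(2), 37.3-fold higher with a difference of 5.22 ± 0.2 (SE) and an adjusted p of 3.76e-10. TM4SF1, a tetraspanin-like membrane protein, read 0.84, 0.88, 0.93 and 0.43 against -4.96, -4.58, -5.09 and -4.74 and -4.97, -5.06, -4.5 and -5.67, 52.6-fold higher. EMP3 (5.5) and EMP1 (3.84), epithelial membrane proteins, and PDLIM5 (3.91), which links actin to kinases, were higher than both lines. All 4 CHP-212 arrays lay above all 8 others for each of these genes, and a lack of overlap in either direction held for 43.1% of all named genes.

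Of 5 S100 genes in that list, S100A16, S100A13 (4.96), S100A6 (4.52) and S100A2 (2.94) were higher than both lines and S100A10 was not called (0.07). Among actin-binding proteins, TAGLN2 was 2.81 and CALD1, caldesmon, 1.27 above the average, and TPM1, a tropomyosin, was not called at -0.56. CNN1, calponin, was 1.8 above IMR-32 and 0.26 from SK-N-BE(2), under 2-fold, and lost its call against the average with normexp background correction and with the 24 and 72 h arrays alone. The 4 lower members were PARVA, PALLD, CD9 and NT5E. PARVA, parvin of focal adhesions, stood at -1.42, -0.99, -1.07 and -1.41 in IMR-32 and 1.0, 1.23, 0.61 and 1.07 in SK-N-BE(2), and was on no CHP-212 array above background and at least 40.3-fold lower. PALLD, palladin of stress fibres, was 4.81-fold lower. Among 7 tested integrins, 5 were higher (3 with normexp background correction) and none was lower, with ITGA3, a laminin-binding chain, at -0.62, -0.86, -0.59 and -0.55 in CHP-212, 2 IMR-32 arrays and no SK-N-BE(2) array above background, and at least 51.7-fold higher than in SK-N-BE(2). ITGA6, a laminin-binding chain too, was 4.32 and 1.74 above the other lines, and ITGA11, a collagen-binding one, 2.68 and 1.78, while ITGA1 was not called.

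**Figure D3:**
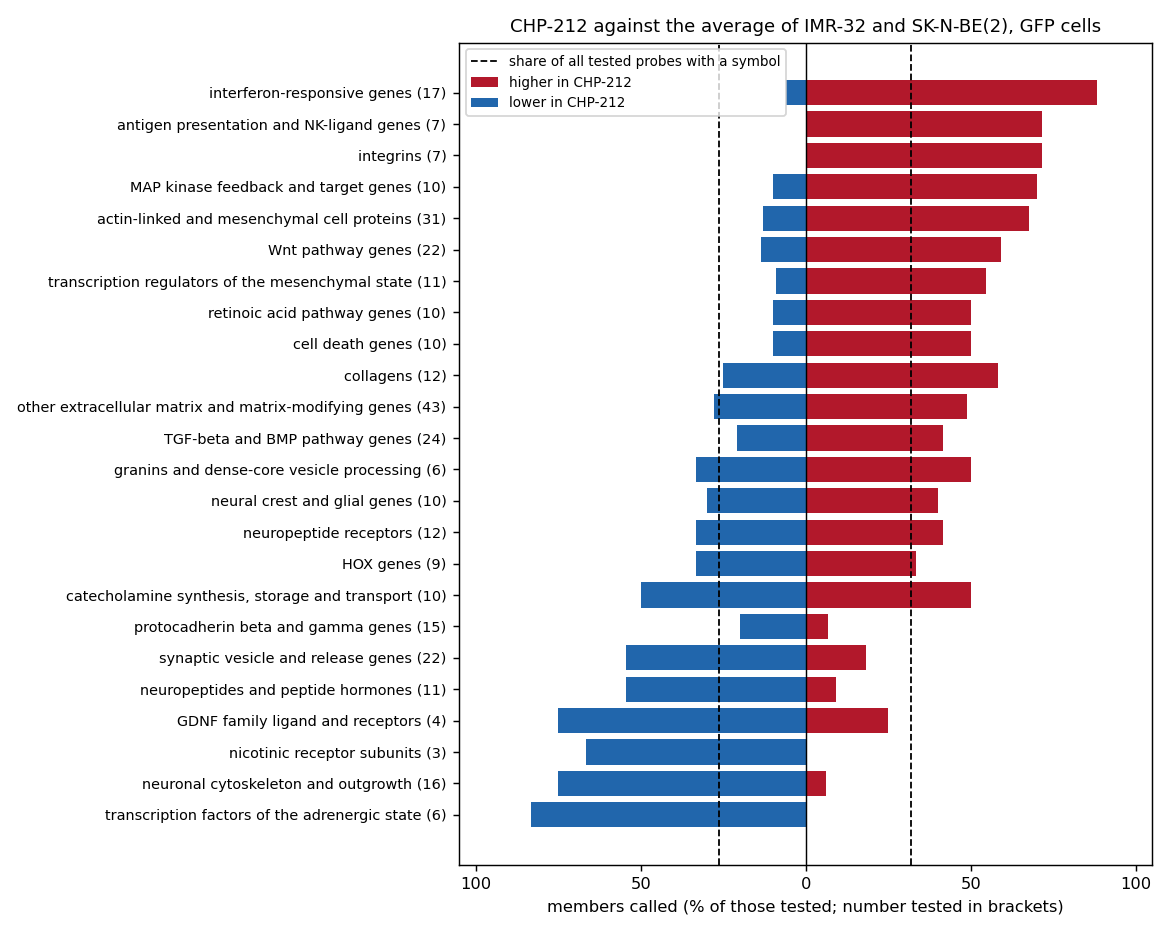
Share of the tested members of each of the 24 gene lists called higher (bars to the right) or lower (bars to the left) in CHP-212 GFP cells than in the average of the other lines, in percent, with the number tested in brackets and dashed lines at the shares of all named genes, 31.8% higher and 26.3% lower. The bar for interferon-responsive genes reaches farthest to the right, and that for adrenergic transcription factors farthest to the left.

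Genes known to respond to interferon were higher in CHP-212 in 15 of 17 tested cases, 13 of them than both lines, and 1 was lower, with a median difference of 3.90 (2.17 with normexp background correction). Interferons signal through STAT and IRF proteins to a promoter element known as the interferon-stimulated response element, whose core is 2 GAAA blocks spaced by 2 bases. The promoters of the list were therefore read from RefSeq (GRCh38.p14, 250 bases before to 50 after the start of the gene) and searched on both strands for GAAANNGAAA. Of the 16 genes of the list with a promoter, 14 had the motif (87.5%). It was found for 1195 of all 27305 genes with a promoter (4.38%) and for 103 of 2057 named genes with a promoter (5.01%). Of the 14 genes with it 12 were higher in CHP-212, 1 was lower (IFI27) and EIF2AK2 was not called, and IFI30 and SP110 were higher without it. With so few lower genes and so few without the motif, the list cannot show whether the motif goes with a direction. The windows below show the first match with 20 bases on either side, with every match that lies whole within the window in capitals, 5′ to 3′ on the strand of the gene, for 6 genes that were higher, for the lower one and for the one not called.
IFIT1, chr10:89392487-89392536, plus strand: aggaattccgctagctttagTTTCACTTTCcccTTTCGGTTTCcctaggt
IFI44, chr1:78649751-78649800, plus strand: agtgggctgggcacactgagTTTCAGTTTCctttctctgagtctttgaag
IFITM1, chr11:313980-314029, plus strand: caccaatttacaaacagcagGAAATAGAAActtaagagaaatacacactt
GBP1, chr1:89065306-89065355, minus strand: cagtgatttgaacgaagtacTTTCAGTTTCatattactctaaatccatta
PARP12, chr7:140062932-140062981, minus strand: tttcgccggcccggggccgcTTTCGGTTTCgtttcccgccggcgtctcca
BST2, chr19:17405731-17405780, minus strand: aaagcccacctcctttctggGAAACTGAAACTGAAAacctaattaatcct
IFI27, chr14:94110608-94110657, plus strand: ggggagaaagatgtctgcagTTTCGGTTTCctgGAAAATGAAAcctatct
EIF2AK2, chr2:37156957-37157006, minus strand: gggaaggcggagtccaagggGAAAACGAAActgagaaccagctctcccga
A TTTC pair is the same motif read from the other strand, and in BST2 a pair of matches overlap. A match of letters is a description of these windows and says nothing about which factor is bound there.

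IFITM1, a membrane protein that blocks virus entry, read 0.23, 0.61, 1.22 and 1.07 in CHP-212 against -6.21, -6.96, -5.7 and -5.81 in SK-N-BE(2), and was above background on no IMR-32 array, at least 158-fold higher than there. IFI44 read -0.58, -0.41, -0.32 and -0.29 in CHP-212 and was above background on 1 array of IMR-32 and none of SK-N-BE(2), at least 61.5-fold higher than in the latter, with an adjusted p of 8.98e-10 against the average. IFIT1, which binds viral RNA ends, read -1.1, -0.09, -0.14 and -0.83 in CHP-212, -5.54, -4.58, -5.34 and -5.77 in IMR-32 and -3.98, -3.63, -3.3 and -3.33 in SK-N-BE(2), 14.9-fold higher, with all 12 arrays above background. For each of these 3 genes, whose windows are shown above, the CHP-212 arrays lay above all others. A lack of overlap in either direction held for 43.1% of all named genes.

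GBP1 and GBP2, guanylate-binding proteins known for induction by interferon gamma, were higher than the average, GBP1 by 5.84 with 1 array of each other line above background, and GBP2 at least 29.6-fold above IMR-32. TLR3, the endosomal receptor for double-stranded RNA, read -2.38, -2.12, -1.99 and -1.84 in CHP-212 and was at least 19.2-fold higher than in SK-N-BE(2), with 1 IMR-32 array above background. IFI30, a lysosomal thiol reductase of antigen processing, read 2.84, 3.04, 3.33 and 3.05 in CHP-212 against -3.41, -3.12, -2.92 and -2.71 and -2.26, -1.74, -1.58 and -0.62, 41-fold higher (adjusted p 2.89e-09). PARP12 was 2.46, TRIM5, a restriction factor of retroviral capsids, 3.23 and PLSCR1, a phospholipid scramblase, 1.5 above the average. The difference thus spanned sensors, effectors and antigen-processing genes.

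IFI27, whose protein sits in mitochondria, was the exception, at -3.44, -4.08, -3.6 and -4.08 in CHP-212 against -0.99, -1.25, -1.02 and -1.05 in IMR-32 and -0.71, -1.13, -0.83 and -0.68 in SK-N-BE(2), 7.17-fold lower than the average, with 3 CHP-212 arrays above background. EIF2AK2, the kinase PKR, was above background on all 12 arrays and 0.45 from the average, under 2-fold. BST2, tetherin, and ISG20, an exonuclease, were higher than the average (1.51 and 1.7) but not apart from both lines, since BST2 was 0.87 from SK-N-BE(2) and ISG20 0.8 from IMR-32. CXCL10, IFIT2 and TRIM22 were above background on too few arrays to be tested, TRIM22 on none and IFIT2 on the 24 and 72 h arrays of CHP-212 alone.

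Antigen presentation and NK-ligand genes were higher in 5 of 7 tested cases and lower in none, all 5 apart from both lines, with a median of 2.06. With normexp background correction 3 were higher, HLA-DPA1 and HLA-DPB2 losing their calls, and the median was 1.00. MICA, a stress ligand of the NKG2D receptor of natural killer cells, read -0.77, -0.85, -0.9 and -1.02 in CHP-212 and was above background on 1 IMR-32 array and no SK-N-BE(2) array, at least 44.1-fold higher than in the latter, and MICB was 3.18 above the average, with 2 arrays of each other line above background. HLA-DPB1, a class II chain, was 6.25 above the average, with 1 SK-N-BE(2) array above background. HLA genes and MICA with MICB are near copies of each other and differ between people, so a probe can read an allele or a neighbour and these levels are uncertain.

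Cell death genes were higher in 5 of 10 tested cases, all 5 than both lines, and 1 was lower. The shares of the 10, 50% higher and 10% lower, stood beside 31.8% and 26.3% of all named genes. CASP4, an inflammatory caspase, read 2.93, 2.71, 3.44 and 3.3 in CHP-212 against -7.21, -6.6, -6.23 and -8.28 in IMR-32, where 1 array was above background, and -3.24, -3.02, -2.3 and -2.04 in SK-N-BE(2), a difference of 7.96 ± 0.35 (SE) with an adjusted p of 1.58e-09, and CASP5, its neighbour and near copy, was 5.95 above the average. CASP8, the initiator caspase of death receptors, read -3.12, -4.38, -0.36 and -1.89 in CHP-212, above background on 3 arrays, and was on no IMR-32 array above background, at least 17.6-fold higher than there. TNFRSF1A, the receptor for tumour necrosis factor, was 3.36 and its adaptor TRADD 2.25 above the average. HRK, a BH3-only protein of neurons, read -3.16, -2.42, -2.25 and -2.41 in CHP-212 against 0.24, 0.47, 0.32 and 0.05 and -0.93, -0.72, -0.3 and -1.02, 5.01-fold lower. BIRC3, TRAF1, DAPK1 and DFNA5 were tested and not called.

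**Figure D4:**
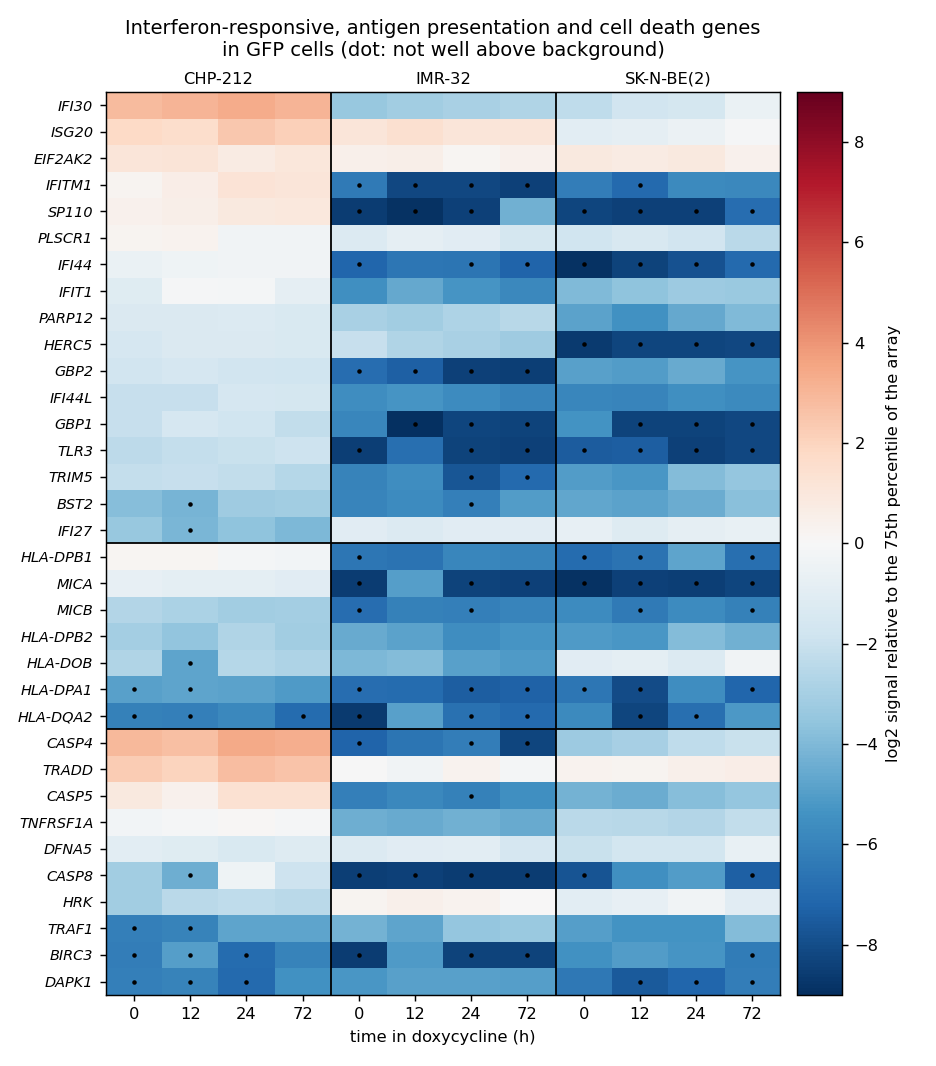
Heat map of the tested interferon-responsive genes (upper block), antigen presentation and NK-ligand genes (middle) and cell death genes (lower) on the 12 GFP arrays, coloured by log2 signal relative to the 75th percentile of the array, ordered by line and hours in doxycycline, with a dot where the probe was not well above background. In the upper block 15 of 17 genes were higher in CHP-212, IFI27 was lower and EIF2AK2 differed by less than 2-fold.

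Feedback and target genes of the MAP kinase pathway were higher in 7 of 10 tested cases, 6 of them than both lines, and 1 was lower. SPRY2, a Sprouty inhibitor of receptor tyrosine kinase signalling, read 2.55, 2.43, 2.62 and 2.6 in CHP-212, -1.26, -1.46, -1.08 and -1.48 in IMR-32 and 1.04, 1.11, 1.15 and 0.98 in SK-N-BE(2), 6.38-fold higher (adjusted p 1.41e-09), and SPRY1 was at least 30-fold above IMR-32, where no array was above background. DUSP2 (3.68) and DUSP10 (3.21), MAP kinase phosphatases, and IL17RD, which restrains FGF signalling (3.62), were higher than both lines, as was PHLDA1 (4.75). DUSP8 was 2.51-fold lower, and DUSP1, an immediate early phosphatase, was not called.

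Wnt pathway genes were higher in 13 of 22 tested cases and lower in 3, and 8 and 2 of them were apart from both lines, with a median of 1.45. Of the 21 above background on both sides, 13 were higher and 2 lower (median 1.64). With normexp background correction 10 of the 22 were higher and 2 lower, WNT3A, DKK1, RSPO2 and SP5 losing their calls. On that setting 8 and 1 were apart from both lines, and the median was 0.61. The ligand WNT5A, which mostly signals without beta-catenin, read -0.53, 0.25, -0.47 and -0.77 in CHP-212 against -5.87, -5.78, -5.82 and -7.3 in IMR-32 and no array above background in SK-N-BE(2), at least 62.5-fold higher than there. The receptors FZD7 (4.57) and FZD1 (1.86) and the repressor-type factor TCF7L1 (6.08, 2 IMR-32 arrays and 1 of SK-N-BE(2) above background) were higher than both lines, and so were the secreted antagonists DKK2 (4.0, 1 array of each other line above background), DKK3 (2.14) and SFRP1 (1.27). LGR5, a receptor for R-spondins and itself a target of the pathway, was on no CHP-212 array above background and at least 4.14-fold lower, and the antagonist FRZB was 15.8-fold lower, with 3 CHP-212 arrays above background. AXIN2, a target used as a readout of beta-catenin, read -2.29, -3.1, -2.35 and -2.11 in CHP-212, -2.29 from IMR-32 and 2.86 from SK-N-BE(2), and was not called against the average. AXIN2 thus lay between the other lines.

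In the TGF-beta and BMP pathways, 10 of 24 tested genes were higher and 5 lower, and 7 and 3 of them were apart from both lines (9 higher and 3 lower of the 20 above background on both sides). The shares of the 24, 41.7% higher and 20.8% lower, stood beside 31.8% and 26.3% of all named genes. The ligand TGFB2 read 0.56, 0.61, 0.73 and 0.01 in CHP-212 against -5.17, -6.13, -6.81 and -5.96 and -5.5, -5.62, -5.96 and -5.85, a difference of 6.35 ± 0.26 (SE) with an adjusted p of 6.46e-10, and TGFB1 was 2.6 above the average. Among antagonists of BMP, activin and nodal, FST, follistatin, was at least 36.8-fold above SK-N-BE(2), where no array was above background, and GREM1 at least 8.57-fold above lines in which no array was above background. CHRDL2 and LEFTY1 were lower, CHRDL2 with 2 CHP-212 arrays above background and LEFTY1 with none and at least 5.98-fold lower than in IMR-32, and CHRD and TWSG1 were not called. With normexp background correction 2 of the 5 lower genes of the list stayed called. The ligand BMP7 read -1.38, -1.23, -1.45 and -2.02 in CHP-212 and was 7.5-fold lower, the receptor BMPR1B at least 1.73-fold and TMEPAI, a feedback inhibitor induced by TGF-beta, 7.45-fold. SMAD7, another feedback gene of the list, was not called (-0.49). BAMBI, also in the list, was higher than the average and lost that call with normexp background correction.

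Of 10 retinoic acid genes, 5 were higher and 1 lower, and 4 and 1 were apart from both lines, with a median of 1.035. Of the 9 above background on both sides, 4 were higher and 1 lower, and the median was 0.38. With normexp background correction 4 of the 10 were higher, RARB losing its call, and the median was 0.33. ALDH1A1, which makes retinoic acid, read -3.48, -2.15, -2.55 and -1.88 in CHP-212 and was above background nowhere else, at least 15.4-fold higher, and ALDH1A3 read 0.45, 0.68, 1.11 and 0.78 against -1.97, -1.8, -1.4 and -1.39 and -4.33, -4.36, -4.24 and -3.07. CYP26A1, which degrades retinoic acid and is induced by it, was 4.42 above the average, with 3 of the 8 other arrays above background, and DHRS3, which returns retinal to retinol, 4.0. RARRES1, a retinoid-responsive gene and the 1 lower member, was 13.7-fold lower than the average, with 1 CHP-212 array above background.

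Markers of other cell types were read as a check on the cultures. The defining leukocyte markers PTPRC and CD48 were above background on no array of any line, and the sum of the 8 leukocyte markers (the 75th percentile of the array counted as 1) was 0.776 to 1.32 in CHP-212, 0.0546 to 0.098 in IMR-32 and 4.09 to 5.99 in SK-N-BE(2). CD52 was the member above background on all 4 CHP-212 arrays, 6.82 above the average, and LCP1, high in SK-N-BE(2), was called lower. The 6 endothelial markers summed to 0.127 to 0.236, 0.0669 to 0.116 and 0.0808 to 0.176 in the same order, with SELE on no CHP-212 array and CD34 at least 7.17-fold higher. The 6 epithelial markers summed to 3.91 to 6.79, 0.284 to 0.354 and 1.71 to 2.35, KRT5 being above background in no line and KRT19, a keratin of simple epithelia, 3.34 and MUC1 2.62 above the average. Each sum adds probes without a common scale, bright ones weighing most, so it gives no share of another cell type. The part of these markers in the differences above was not tested.

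In FOXP1 cells, named here by their label alone, the same contrast was then measured on the 12 FOXP1-labelled arrays of the 3 lines. These arrays share slides with the GFP arrays of their line, and they come from other cultures and not other lines. The FOXP1 probe itself read 1.03 ± 0.18 (SD, n = 4) in GFP cells of CHP-212, 1.2 ± 0.14 in IMR-32 and 2.99 ± 0.22 in SK-N-BE(2), and 3.01 ± 0.20, 2.60 ± 0.16 and 2.79 ± 0.15 in the FOXP1-labelled ones. It was thus higher with the transgene in CHP-212 and IMR-32 and not in the libraries labelled FOXP1 of SK-N-BE(2), whose GFP cells already read higher, and FOXP1 was 2.1-fold lower in CHP-212 GFP cells than in the average of the other GFP cells.

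In these cultures 876 named genes (32.1%) were higher and 636 (23.3%) lower in CHP-212. Of the probes apart from both lines in GFP cells, 2311 of 3131 higher ones (73.8%) and 1859 of 2830 lower ones (65.7%) were apart from both in the same direction in FOXP1 cells. In the opposite direction 0 and 2 were apart from both. Of the probes called against the average in GFP cells, 3792 of 4927 higher ones (77.0%) and 3314 of 4700 lower ones (70.5%) were called alike in FOXP1 cells. There 24 and 43 were called in the opposite direction. DBH was -8.13 from the average in FOXP1 cells, HOXC9 -7.78 and LGALS1 4.76, each on the same side as in GFP cells. In CHP-212, DBH was above background on 3 and HOXC9 on 2 FOXP1-labelled arrays, so their differences are values as read. The lowest level well above background was -3.87 and -3.89 on the FOXP1-labelled CHP-212 arrays of 0 and 12 h. GJA1 was above background on no FOXP1-labelled array of the other lines and at least 900-fold higher than their average, and EYA1 was above it on none of CHP-212 and at least 247-fold lower. By list, 12 of 17 interferon-responsive genes were higher and 1 lower, 18 and 3 of 31 actin-linked genes, 5 of 6 adrenergic factors were lower and 10 of 16 neuronal cytoskeleton genes were lower with 3 higher. Other lists had counts unlike those in GFP cells, and the difference of a list was not tested. Neural crest and glial genes had 7 higher and 1 lower of 10 (median 2.88, and -0.08 in GFP cells). Nicotinic subunits had 1 and 1 of 3 (median 0.88, and -2.75 in GFP cells). Neuropeptides had 3 and 4 of 11 (median 0.16, and -2.41 in GFP cells). HOX genes had 3 higher and 5 lower of 9, against 3 and 3, and protocadherins 1 and 7 of 15, against 1 and 3. Antigen presentation genes gave 2 higher and none lower in FOXP1 cells, against 5 in GFP cells, and 1 of the 2 was MICA, which was above background on none of the 12 FOXP1-labelled arrays.

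The difference between the cultures was itself tested, and it was called for 876 named genes (32.1%), a share to be read with the way the names were chosen. SSTR2, a somatostatin receptor, changed sign, from -3.08 in GFP cells to 2.71 in FOXP1 cells (difference -5.79, adjusted p 2.07e-10). CHRNB4 went from -2.75 to 1.19 (adjusted p 7.58e-08), where the FOXP1 value joins 4.1 from IMR-32, with no IMR-32 array above background, and -1.72 from SK-N-BE(2). RET stood at 3.99 and 1.02 and IL17RD at 3.62 and 0.19, with all arrays above background. The RET value in FOXP1 cells joins 3.083 from IMR-32 and -1.045 from SK-N-BE(2), and so differences of opposite sign. SLC18A2 stood at 2.98 in GFP cells and at 0.96 in FOXP1 cells, where it was not called and was 0.07 from SK-N-BE(2). Of its FOXP1-labelled arrays, 3 of CHP-212 and 2 of IMR-32 were above background. MICA had no measured level in FOXP1 cells. In FOXP1 cells WNT5A was above background in CHP-212 alone, at least 256-fold higher than the average, and TFAP2B in the other lines alone, at least 844-fold lower in CHP-212. Those of DBH, CASP4 and SP110 did not pass this test, with adjusted p of 0.899, 0.754 and 0.975, which does not show them to be equal.

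**Figure D5:**
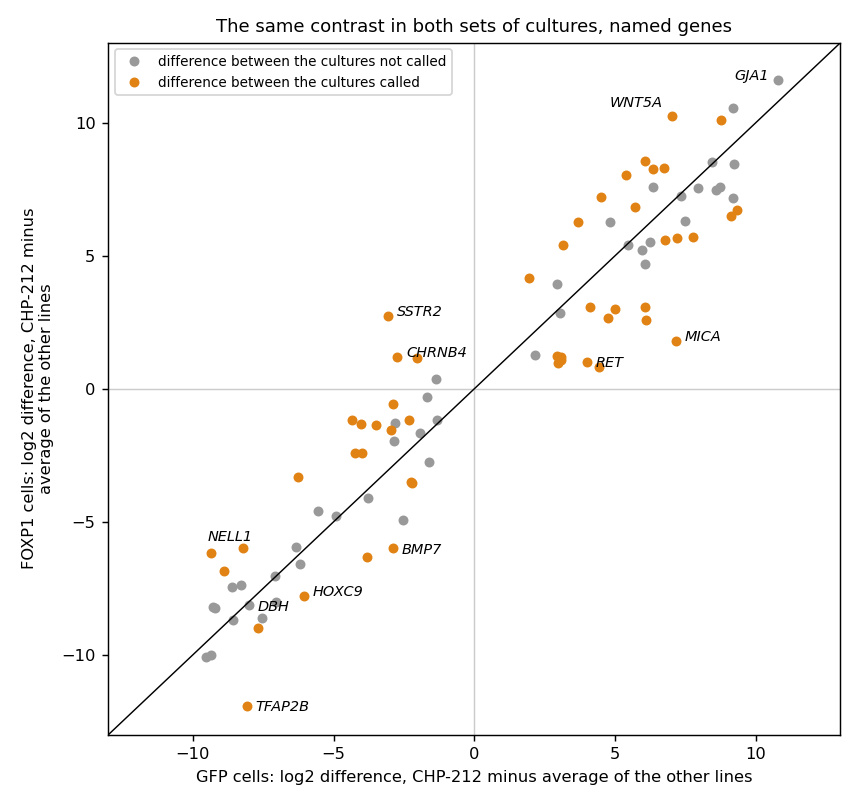
Log2 difference of CHP-212 from the average of the other lines in FOXP1 cells (vertical axis) against that in GFP cells (horizontal axis), with a point for each of the 93 named genes, coloured by whether the difference between the cultures was called, and the line of equal values. Most points lie in the same quadrant in both axes, and SSTR2 and CHRNB4 are among those that do not. Levels not above background are plotted as read.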

How the data were processed

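Total RNA of polyclonal GFP and FOXP1 cultures of 3 lines was hybridised to 24 1-colour Agilent arrays of 43291 probes (Cy3). The authors deposited scanner output, whose processed intensity is background-subtracted and detrended within the array by Agilent Feature Extraction, and a value table, deposited as intensity on a linear scale, whose arrays share 1 distribution (within 0.088%) and rank as the processed signals do; its normalization is not given in the sources used here. Here log2 of the processed signal was taken relative to the 75th percentile of each array, leaving out 190 outlier spots on the 12 GFP arrays (0 spots were saturated). limma (3.58.1, R 4.3.3) fitted 1 mean per line, and p-values were two-sided with Benjamini-Hochberg adjustment over 35246 probes. The test was unpaired. The code was tested on simulated data.

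Symbols came from a supplementary table of the study, used for names only (some of its sheets are held in part), and its comparison columns were not used. Of its named probes 3130 matched RefSeq by accession, 133 by symbol and 96 by synonym, and 144 did not match and kept their symbol. The named genes were DBH and HOXC9, the leading genes (10 in each direction) and, per list, the 2 highest and 2 lowest called members, while other list members are given by value and were picked with their values seen. Some items these rules take are not reported here, nothing took their place, and the lists are counted without them. The members and gene lists were chosen with earlier results of these data known. A bound ("at least") sets the brighter line's mean against the higher of each dim array's lowest signal well above background and the probe's own. Alternatives were normexp (offset 50, on median signals), quantile normalization, the authors' values, other filters, blocks, fits and time points, and each array left out. Calculations used Python 3.11.15, numpy 2.4.6, pandas 2.3.3, scipy 1.17.1 and matplotlib 3.10.9.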

Additional observations from a re-analysis of the deposited data

Results flagged for a closer look

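Among 279 groups of 4 arrays, which were looked at for 1 array apart from its group, 12 held one (the gap to the nearest array as a share of the whole range was above Dixon's critical value for 4 samples), and chance gives about 1 in 20 groups. In CHP-212 the only such value was NR0B1 at 12 h, 4.09 against 4.26 to 4.29 on the other arrays, a gap that is small beside its difference from the other lines. In IMR-32 they were SP110 at 72 h (-4.34), MGP at 0 h (-8.34), NPY2R at 12 h (-9.13), PCDHB16 at 0 h (-5.55), MICA at 12 h (-4.95), IFITM1 at 0 h (-6.36) and WNT5A at 72 h (-7.30). In SK-N-BE(2) they were SP110 at 72 h (-6.85), MBP at 0 h (-6.26), ITGA6 at 12 h (-0.30) and HLA-DPB1 at 24 h (-4.75). Most of these arrays belong to lines in which the gene was at or near background.

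The difference of CHP-212 from the other lines was not the same in GFP and FOXP1 cells for 50 of 93 named genes, by limma's test of the difference between the cultures. Values are the log2 difference in GFP cells minus that in FOXP1 cells. Each joins changes in all 3 lines and does not say which line moved. The PCDHB2 mean went from -4.84 in GFP to 0.58 in FOXP1 cells of IMR-32 and from 0.43 to 1.28 in CHP-212. For SSTR2 it went from 2.24 to 0.20 in IMR-32 and from -2.56 to 2.03 in CHP-212. Among genes higher in CHP-212 GFP cells, the difference was larger in GFP cells for ASB9 (2.62), TRPS1 (2.62), SLC18A2 (2.01), CYB561 (1.70), RET (2.97), HOXD10 (1.18), FBN2 (1.52), SNPH (1.04), SNCG (2.00), NMU (2.00), PCDHB2 (1.85), MICA (5.34), IFITM1 (2.08), PHLDA1 (2.09), TCF7L1 (3.52), ALDH1A1 (2.98) and CYP26A1 (3.61). It was larger in FOXP1 cells for CBLN2 (-1.35), ECEL1 (-2.23), ID1 (-2.25), MBP (-2.70), COL8A1 (-2.58), MGP (-1.54), TM4SF1 (-1.11), NPY1R (-2.50), SPRY1 (-2.65), WNT5A (-3.23) and TGFB2 (-1.91). Among genes lower in CHP-212 GFP cells, it was larger in size in GFP cells for NELL1 (-3.16), ZMAT4 (-2.06), SCG5 (-1.80), GFRA3 (-1.42), CHRNA3 (-2.14), PARVA (-2.95), TUBB2B (-2.24), NPY (-3.19), HRK (-1.16), LGR5 (-2.70), FRZB (-1.56) and TMEPAI (-2.31). It was larger in size in FOXP1 cells for HOXC9 (1.72), CHGB (1.29), TFAP2B (3.83), PALLD (1.23), NPY2R (2.51), PCDHB16 (1.33) and BMP7 (3.09). The difference from the average was negative in GFP cells and positive in FOXP1 cells for CHRNB4 (-3.94) and SSTR2 (-5.79), CHRNB4 being on no FOXP1-labelled array of IMR-32 above background. FLI1 (-3.18), like MICA, was above background on no FOXP1-labelled array of any line, so its sign there is not measured. Other values rest on a side with no array above background, which was CHP-212 in FOXP1 cells for TFAP2B and PARVA, CHP-212 in GFP cells for FLI1, PARVA, NPY2R and LGR5, the other lines in FOXP1 cells for MBP, NPY1R, WNT5A and ALDH1A1, and the other lines in GFP cells for NPY1R and ALDH1A1, so that their sizes are not measured differences. In all, 21 of the 50 genes had a line with no array above background in GFP or FOXP1 cells.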

How the results depend on the processing

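Of the 93 named genes, 93 were called in the same direction with quantile normalization, the authors' value table, all 24 arrays in 1 fit, the slide as a random block and looser filters on dim probes, and 21 of 93 could be tested, all called, where a probe had to be above background on all 12 arrays. That filter left 3133 probes higher and 2188 lower than the average, and 1984 and 1296 apart from both lines, since fewer probes were tested. With normexp background correction 2937 were lower than the average and 1672 lower than both lines, 3167 were higher and 2788 lower in FOXP1 cells, PCDHB17 turned to 0.063, and ECEL1, MIA and SOX2 lost their calls; the cause was not tested. Leaving out 1 array at a time gave 4697 to 5096 higher and 4623 to 4823 lower, 2971 to 3240 and 2745 to 2885 apart from both lines, and 4834 to 5357 and 4544 to 5351 in FOXP1 cells. PCDHB17 lost its call without the 24 h (-1.13) or the 72 h (-0.93) array of CHP-212. With the 0 and 12 h arrays alone FLI1, HOXC8, MIA and PCDHB17 lost their calls, and with the 24 and 72 h arrays alone DUSP8 did. With 1 mean for the 8 other arrays 9 genes lost theirs, CYB561, DPYSL3, FLI1, HOXC8, NPY, NPY2R, PCDHB16, RET and SCG5, for which IMR-32 and SK-N-BE(2) differ. The methods' t-test gave 4394 higher and 4100 lower at an unadjusted p under 0.05 and 3871 and 3685 after Benjamini-Hochberg adjustment. The time points of different lines were not paired, following the unpaired test in the methods of the study. Deviations from the line means correlated at -0.0722 to 0.298 between arrays of the same time point. At 12 h the correlations were 0.22, 0.298 and 0.26 for the pairs of lines. With time point as a replicate block, 4963 were higher and 4731 lower, 3183 and 2874 apart from both lines, and 5132 and 5005 in FOXP1 cells. No slide held arrays of different lines, so the slide as a random block does not separate slide from line. The number of arrays limits the precision, and levels of dim genes on the 0 and 12 h arrays of CHP-212 are bounded by background.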
